A study of Homo sapiens with 32 samples.

Results

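The contrast described here joined both ways of separating ERH from DGCR8. Clones of 293T cells, a readily transfected human embryonic kidney line, that lacked the ERH binding site of DGCR8 and also received shRNAs against ERH were compared with wild-type clones given non-targeting shRNAs. The members were chosen by genotype and shRNA alone, as 16 of the 32 libraries of the series. Deletion clones 30, 34, 42 and 43, with the genotype label DGCR8 delta103-126Q, were taken under shERH_1 and shERH_2. Wild-type clones 52, 55, 57 and 67 were taken under control shRNA_1 and control shRNA_2. The 2 libraries of a clone were summed, which left 4 clones against 4. The deletion had been made by prime editing, which writes a designed change into the genome without a double-strand break. Every cell population, controls included, carried a transiently transfected shRNA vector, was selected with puromycin, and on day 5 was sorted by a fluorescent protein that the vector encodes. Each clone descends from 1 cell, so differences between clones of a genotype are part of the error. The question was how far miRNA levels differ when both interventions are present, and whether the difference equals the sum of the single effects, for which the other 16 libraries (deletion with control shRNAs, wild type with ERH shRNAs) were also used.

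Animal miRNAs are cut from long nuclear transcripts by the Microprocessor, an assembly of the RNase III enzyme DROSHA and the RNA-binding protein DGCR8. ERH is a small conserved nuclear protein that binds an N-terminal stretch of DGCR8. Hairpins with poor features for cutting can be processed with help from a better hairpin on the same transcript, a dependence known as cluster assistance. The best known case is mir-15a, whose processing is helped by its neighbour mir-16, and mir-451a with its neighbour mir-144 is another. The hairpins mir-1306 and mir-3618 lie inside the DGCR8 transcript itself, where Microprocessor cutting takes part in the control of DGCR8.

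Several results below set hairpins with the same seed side by side, in most cases neighbours on 1 transcript; mir-192 and mir-215, and mir-29a and mir-29c, come from separate loci. Their mature sequences are shown first, 5′ to 3′, from RefSeq (GRCh38.p14), with the seed (bases 2 to 8) in capitals. The first 3 share the seed AGCAGCA, the next pair ACAUUCA, the next AACAGUC, the next UGACCUA and the next 3 AGCACCA.
miR-15a-5p: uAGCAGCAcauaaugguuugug
miR-15b-5p: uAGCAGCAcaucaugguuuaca
miR-16-5p: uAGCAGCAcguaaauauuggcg
miR-181a-5p: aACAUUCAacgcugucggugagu
miR-181b-5p: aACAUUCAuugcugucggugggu
miR-212-3p: uAACAGUCuccagucacggcc
miR-132-3p: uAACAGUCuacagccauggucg
miR-192-5p: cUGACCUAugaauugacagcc
miR-215-5p: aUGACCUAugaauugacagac
miR-29a-3p: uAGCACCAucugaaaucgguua
miR-29b-3p: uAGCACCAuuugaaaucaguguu
miR-29c-3p: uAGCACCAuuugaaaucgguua

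The next 4 differ in seed from these and from each other. The first 2 come from the DGCR8 transcript, and the other two were among the rows that rose.
miR-1306-5p: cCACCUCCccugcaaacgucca
miR-3618: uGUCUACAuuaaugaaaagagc
miR-7-5p: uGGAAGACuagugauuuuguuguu
miR-548l: aAAAGUAUuugcggguuuuguc

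The hairpins of the mir-15 and mir-16 pairs are shown with both mature arms in capitals, since the contrast separated them. MIR15A (chr13:50049119-50049201, minus strand) and MIR16-1 (chr13:50048973-50049061, minus strand) lie in DLEU2, a non-coding gene. MIR15B (chr3:160404588-160404685, plus strand) and MIR16-2 (chr3:160404745-160404825, plus strand) lie in an intron of SMC4.
MIR15A: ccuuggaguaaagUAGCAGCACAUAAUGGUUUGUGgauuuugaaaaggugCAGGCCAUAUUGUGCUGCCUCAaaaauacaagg
MIR16-1: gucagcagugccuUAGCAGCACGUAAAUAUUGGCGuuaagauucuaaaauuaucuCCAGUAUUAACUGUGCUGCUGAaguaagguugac
MIR15B: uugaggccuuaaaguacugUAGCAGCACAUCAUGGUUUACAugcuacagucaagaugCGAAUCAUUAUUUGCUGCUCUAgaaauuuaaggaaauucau
MIR16-2: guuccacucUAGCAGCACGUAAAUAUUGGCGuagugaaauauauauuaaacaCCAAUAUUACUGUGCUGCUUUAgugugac

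The counts were given per precursor name, so a row holds both arms of a hairpin and all its loci. The 16 libraries compared held 1789085 to 2784409 miRNA counts and 10527 to 24084 counts of the 4 spike-in RNAs, and 683 to 820 of the 1513 miRNA rows had a count in a library. Over all 32 libraries miRNA counts ran from 1318923 to 6222790. Wild-type clone 57 had 2464819 under shERH_1 and 6222790 under shERH_2, and clone 67 had 4324633 and 1782947. The ERH shRNAs thus weigh unequally in these sums, which enter the single effects and departures. Wild-type clone 57 stood apart from the other wild-type clones in mir-3618, mir-92a and mir-532, and without it 226 rows were called in the comparison below, against 259 with it. The kidney markers mir-192, mir-194, mir-196a, mir-10a and mir-10b were present in every sum, and the pluripotency markers mir-302a to mir-302d and mir-367 summed to at most 1.07 CPM (counts per 1e6 counts, TMM-scaled). Markers of other tissues were also counted. In the wild-type control sums and in the deletion sums with ERH shRNAs, mir-126, known from endothelium, ran from 4345 to 7715 and from 2239 to 4517 CPM, and the liver marker mir-122 from 168 to 533 and from 72.1 to 243 CPM. The 4 blood markers (mir-142, mir-223, mir-150 and mir-451a) summed to 213 to 413 and 159 to 1137 CPM, the 4 muscle markers to 23.0 to 169 and 24.9 to 75.4 CPM with mir-208a at 0, the smooth muscle pair mir-143 and mir-145 to 12.6 to 59.2 and 6.26 to 23.6 CPM, and the neuronal mir-124 to 5.89 to 19.3 and 8.14 to 13.4 CPM. Deletion clone 30 stood apart in mir-142, at 1012 CPM against 148 to 256 in the other deletion clones, and in mir-223, at 110 against 10.5 to 24.3 CPM. Neither row was called (edgeR adjusted p = 0.214 and 0.114), whereas mir-122 was called lower (log2 change -1.28, edgeR adjusted p = 0.0186). Without clone 30, 247 rows were called in the comparison below. The part of the cells these markers stand for in the other results was not tested. ERH mRNA and the edit itself are not covered by a miRNA table, so the genotype and knockdown labels could not be checked here.

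With both interventions present, 259 of 553 tested rows differed from wild type (46.8%; edgeR quasi-likelihood test, Benjamini-Hochberg adjusted p under 0.05). Of these, 168 rose (30.4%) and 91 fell (16.5%). The groups did not overlap in 227 rows (41.0%). The rows that fell were mostly abundant, with a median of 1130 CPM in the wild-type control clones, whereas the rows that rose had a median of 9.96 CPM. Falls of at least 2-fold were called in 41 rows (7.41%) and rises of at least 2-fold in 156 (28.2%). The split depended on the scaling. TMM scaling, used throughout, takes a trimmed mean of the rows as its zero and put the median of all tested rows at 0.12 on the log2 scale. Scaling by spike-in counts moved that median to 0.73, and 238 rows rose and 20 fell. Of the spike-in counts in the series, 92.6% came from spike-in 1, so this scaling rests mostly on that RNA. With total miRNA counts as library size the median was 0.60, with 231 higher and 24 lower. DESeq2 gave a median of -0.12, with 150 higher and 143 lower, and a correction for hairpin GC content gave -0.14, with 112 higher and 125 lower. Levels and changes below are therefore relative to the TMM zero.

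Clustered and isolated hairpins behaved differently in this contrast. Clustered rows are those with another tested hairpin of the same strand at most 10 kb away. Of 106 clustered rows, 50 fell and 2 rose, with a median log2 change of -0.57. Of 438 rows with a hairpin position and no near neighbour, 40 fell and 163 rose, with a median of 0.54. The median of the clustered rows was 0.02 with spike-in scaling, against 1.14 for the isolated ones, so the distance between both medians held while the sign for the clustered rows did not. The 2 clustered rows that rose, named after their values were seen, were mir-7 and mir-3179. Among 38 groups of neighbouring hairpins, 33 had a median below 0 (86.8%), 26 held a row that fell, and 0 held rows called in both directions. Rows that fell had a median hairpin GC content of 50.5%, close to the 51.0% of rows not called, while rows that rose had 40.2%. Across 544 rows the log2 change and GC content had a Spearman rho of -0.25. It was -0.04 in the 106 clustered rows and -0.31 in the 438 isolated ones. These values are across rows, which share libraries and differ in abundance.

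Among rows with a mean of at least 10 CPM over all 8 sums and no overlap between groups, the largest falls were in mir-1306, mir-192, mir-217, mir-212, mir-7974, mir-181b, mir-449c and mir-15a. Below that limit, and named after their values were seen, mir-4421 fell by 3.66 on the log2 scale, from a mean of 17.7 to 1.39 CPM (edgeR adjusted p = 0.000649), and mir-10523 by 2.53. Clone values below are given in the order 52, 55, 57 and 67 for wild type with control shRNAs, and 30, 34, 42 and 43 for the deletion with ERH shRNAs. The hairpin mir-1306 lies in an exon of DGCR8 (chr22:20086058-20086142, GRCh38, plus strand). It measured 77.2, 63.1, 86.4 and 114 CPM in the wild-type clones and 11.2, 12.4, 18.7 and 12.5 CPM in the deletion clones. Every deletion clone was below every wild-type clone, and the mean fell from 85.3 ± 21.7 to 13.7 ± 3.37 CPM (SD, n = 4 each). The log2 change was -2.64 ± 0.30 (SE; edgeR adjusted p = 0.000164), a 6.21-fold difference. Its transcript partner mir-3618 measured 33.2, 33.1, 55.3 and 32.1 CPM against 22.4, 27.05, 45.4 and 53.3 CPM. These groups overlapped, and the log2 change of -0.05 ± 0.33 did not pass the test (edgeR adjusted p = 0.907).

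The kidney-enriched mir-192, which is induced by p53, gave 2421, 4367, 3808 and 3331 CPM in the wild-type clones and 1096, 496, 554 and 418 CPM in the deletion clones. Clone 30 was the highest of the deletion clones, yet lay below all wild-type clones. The log2 change was -2.44 ± 0.31 (edgeR adjusted p = 0.00024). The neighbouring mir-194, at 720 ± 151 against 444 ± 174 CPM, fell by 0.70 on the log2 scale (edgeR adjusted p = 0.0467), with clone 30 inside the wild-type range, and this call was lost in 11 of 18 alternatives. The row mir-215, which shares its seed with mir-192 but comes from the other cluster with a mir-194 copy, was at 47.3 ± 13.95 against 46.9 ± 17.05 CPM (log2 change -0.01 ± 0.32, edgeR adjusted p = 0.975).

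The hairpins mir-212 and mir-132 lie side by side on chromosome 17 and are known as targets of the transcription factor CREB. Mir-212 was scarce, at 16.9, 10.8, 27.3 and 24.1 CPM in wild-type clones, and was lower still at 3.37, 3.91, 4.22 and 3.21 CPM in deletion clones. All 4 deletion values lay below the lowest wild-type one (log2 change -2.41 ± 0.37, edgeR adjusted p = 0.000411). Mir-132 was at 760 ± 233 and 711 ± 160 CPM, a log2 change of -0.10 ± 0.25 that did not pass (edgeR adjusted p = 0.771). A pair with a like split was mir-181b and mir-181a, regulators studied in lymphocyte development, each with loci on chromosomes 1 and 9. Mir-181b measured 801, 1072, 1407 and 1384 CPM in wild-type clones and 256, 253, 244 and 314 CPM in deletion clones. The deletion clones were close together and far below the others (log2 change -2.13 ± 0.23, edgeR adjusted p = 0.000126). Mir-181a, at 3307 ± 447 against 2303 ± 386 CPM, fell by 0.52 (edgeR adjusted p = 0.0346), a call lost in 9 of 18 alternatives and turned to 0.09 by spike-in scaling.

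Mir-449c, from an intron of the cell-cycle gene CDC20B and known from multiciliated cells, fell from 44.3 ± 9.28 to 10.6 ± 2.91 CPM (log2 change -2.05 ± 0.31). Its neighbour mir-449a was at 102 ± 47.5 and 62.6 ± 19.5 CPM and did not pass. Mir-217, known from the exocrine pancreas, fell from 23.3 ± 8.73 to 4.30 ± 1.03 CPM (log2 change -2.43 ± 0.38). Mir-7974, in an intron of ZNF653, fell from 68.8 ± 35.3 to 15.5 ± 7.81 CPM (log2 change -2.14 ± 0.45). The edgeR adjusted p-values of these 3 falls were 0.000394, 0.000441 and 0.0021, and in each row the groups did not overlap.

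Within the pairs whose hairpins are printed above, mir-15a and mir-15b fell by more than mir-16. Mir-15a gave 3866, 3749, 2653 and 1780 CPM in wild-type clones and 845, 521, 976 and 716 CPM in deletion clones. No deletion clone reached the lowest wild-type value, although wild-type clones themselves ranged widely (log2 change -1.98 ± 0.28, edgeR adjusted p = 0.000326). Mir-15b gave 9644, 7974, 8046 and 9816 CPM against 2975, 3134, 3150 and 2861 CPM. Both groups were narrow and far apart (log2 change -1.55 ± 0.16, edgeR adjusted p = 0.000126). Mir-16, the single row for both loci and the most abundant of the rows named here, fell from 210897 ± 17776 to 147881 ± 8940 CPM (log2 change -0.51 ± 0.13, edgeR adjusted p = 0.00537), and with spike-in scaling it stood at 0.10 and was not called. The miR-15/16 family represses BCL2 and cell-cycle genes. Of the 9 listed hairpins that were reported to need ERH or a neighbour, taken with their partners, 7 fell and 0 rose. The median log2 change was -1.31. Of all tested rows 16.5% fell. Among the 106 clustered rows, which include all 9, 47.2% fell and the median was -0.57. The list was drawn up with earlier results of these data known. With spike-in scaling 4 of the 9 fell, and their median was -0.81. Of all 553 rows 20 fell with that scaling, and of the 106 clustered rows 15 fell.

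A ratio of 2 rows in the same library is free of scaling between libraries. The mir-16 row pools its loci in DLEU2 and SMC4, so the ratios to mir-16 are not within 1 transcript. On the log2 scale, mir-15a over mir-16 was -6.19 ± 0.47 in wild-type and -7.63 ± 0.37 in deletion clones (SD, n = 4 each), without overlap. The difference of -1.44 had an exact two-sided permutation p of 0.0286, the smallest that 70 arrangements allow, and 0.0476 after Benjamini-Hochberg adjustment over 5 ratios. For mir-15b to mir-16 the ratio was -4.57 ± 0.26 and -5.61 ± 0.13, a difference of -1.03 with the same exact p of 0.0286 and adjusted p of 0.0476. With the second shRNA pair alone this difference was -0.80 and did not pass (exact permutation p = 0.0571). The ratio of mir-1306 to mir-3618 turned from 1.16 ± 0.51 to -1.37 ± 0.49. In wild-type clones mir-1306 outnumbered mir-3618, and in every deletion clone with ERH shRNAs the order was the opposite (difference -2.53, exact permutation p = 0.0286, adjusted 0.0476). For mir-451a to mir-144 the ratio was 1.17 ± 0.54 and 0.03 ± 0.85. These groups overlapped, and the difference of -1.14 did not pass (exact permutation p = 0.0857, adjusted 0.107). Mir-451a itself was rare, at 18.6, 15.4, 7.70 and 9.66 CPM against 3.59, 3.23, 10.05 and 3.88 CPM. Clone 42 lay inside the wild-type range, and the fall of 1.31 on the log2 scale (edgeR adjusted p = 0.0307) was lost in 9 of 17 alternatives. Mir-144 was at 6.24 ± 4.08 and 4.89 ± 2.26 CPM and did not pass (edgeR adjusted p = 0.563).

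The same comparison was extended to further pairs of neighbours among the named rows, chosen after their values were seen and therefore given without a test. The rows of the hairpin ratios tested above were on the list of hairpins reported to need ERH or a neighbour. That list too was drawn up with earlier results of these data known. The log2 ratio of mir-29c to mir-29b lay between 2.44 and 2.77 in wild-type and between 0.55 and 1.70 in deletion clones. For mir-181b to mir-181a it lay between -1.77 and -1.35 against -3.28 and -2.79. For mir-212 to mir-132 the mean ratio was lower by 2.27, for mir-192 to mir-194 by 1.77, for mir-449c to mir-449a by 1.45, and for mir-532 to mir-660 by 0.88. In each of these pairs the clone ranges did not overlap, which follows in part from how they were picked. Over all 26 groups of 2 neighbouring tested rows, the log2 changes of both rows lay between 0.03 and 2.67 apart, with a median of 0.66. Near-equal changes were seen in mir-30c and mir-30e (0.12 apart), mir-130b and mir-301b (0.14) and mir-34b and mir-34c (0.06). In the pair mir-374b and mir-421 in FTX both rows fell, by 1.12 and 1.23 on the log2 scale, and their ratio overlapped between groups. Within the miR-29 family, known to repress collagen genes, mir-29c fell from 9268 ± 2514 to 3076 ± 937 CPM (log2 change -1.59 ± 0.25) and mir-29a from 7422 ± 2020 to 4360 ± 678 CPM (-0.77 ± 0.21). Mir-29b, whose row holds loci on chromosomes 1 and 7, was at 1583 ± 495 and 1518 ± 442 CPM and did not pass.

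The abundant rows that fell did so by less. Mir-93, from the cluster in an intron of the replication gene MCM7, measured 64900, 60092, 62946 and 61987 CPM against 33172, 40705, 42186 and 45743 CPM (log2 change -0.63 ± 0.14, edgeR adjusted p = 0.0034). Its neighbour mir-25 was at 43359 ± 5848 and 40270 ± 3993 CPM and did not pass, and with spike-in scaling it was 0.53 higher and called. Mir-103a, from introns of the pantothenate kinase genes PANK3 and PANK2, fell by 0.58, a change that spike-in scaling turned to 0.03. Mir-30e, from an intron of NFYC, fell by 0.83. Calls for these 3 falls were lost with spike-in and with total-count scaling, whereas the 8 named largest falls and the 8 named largest rises kept their calls in every alternative run on them. That was 18 alternatives, or 17 for mir-217, mir-212, mir-581, mir-1255b, mir-4504 and mir-3179, which were not tested under the filter of a mean of at least 100 counts.

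Under the same limit the largest rises were in scarce rows. The rows mir-581, mir-1255b, mir-3158, mir-4504, mir-3145 and mir-3179 passed it only through the deletion clones, where they were high. Their wild-type means lay below the limit, so their place among the named rises is partly fixed by this choice. In mir-548l and mir-3157 every wild-type clone was above it. Of the rows below the limit, and named after their values were seen, mir-9900 rose by 3.20, mir-4803 by 3.04 and mir-5089 by 2.79 on the log2 scale. Mir-4803 went from a mean of 1.78 to 14.9 CPM (edgeR adjusted p = 0.000479). Mir-581, in an intron of ARL15, rose from 3.42, 2.31, 3.50 and 0.966 CPM to 12.6, 29.6, 11.7 and 16.04 CPM. Its lowest deletion clone was above its highest wild-type clone (log2 change 2.79 ± 0.47, edgeR adjusted p = 0.00064). Mir-548l, in an intron of the DNA repair gene MRE11, gave 15.4, 16.4, 19.9 and 19.1 CPM against 85.5, 87.1, 54.3 and 119 CPM. The wild-type clones were close together, and each deletion clone was well above them (log2 change 2.29 ± 0.29, edgeR adjusted p = 0.000249). Mir-3157 gave 42.3, 31.5, 33.6 and 42.7 CPM against 137, 167, 123 and 256 CPM (log2 change 2.18 ± 0.29, edgeR adjusted p = 0.000279). The other rises of this rank were 2.47 in mir-1255b, 2.45 in mir-3158, 2.38 in mir-4504, 2.29 in mir-3145 and 2.20 in mir-3179, with edgeR adjusted p-values from 0.000279 to 0.00284. The rows mir-1255b, mir-3158 and mir-3179 pool several loci, those of mir-3158 being on both strands of 1 place, so their source locus is uncertain.

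The most abundant row that rose was mir-7. This miRNA, which represses EGFR and is enriched in neurons and endocrine cells, measured 3988, 2745, 3524 and 2805 CPM in wild-type and 11656, 15548, 8312 and 10251 CPM in deletion clones. The lowest deletion clone was above the highest wild-type clone (log2 change 1.81 ± 0.22, a 3.50-fold rise, edgeR adjusted p = 0.000236). Its row pools 3 loci, on chromosomes 9, 15 and 19, of which MIR7-1 lies in HNRNPK. Mir-629 in TLE3 rose from 3100 ± 344 to 6666 ± 961 CPM, mir-590 in EIF4H from 1752 ± 565 to 3324 ± 506 CPM, and mir-625 in FUT8 from 1242 ± 174 to 2166 ± 260 CPM. The log2 changes were 1.10 ± 0.17, 0.92 ± 0.23 and 0.80 ± 0.18, and in each row the groups did not overlap. The rise of mir-590 was lost with the GC correction, at 0.12.

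The lists of families and clusters, read against the 16.5% of all rows that fell and the 30.4% that rose, went mostly one way. In the miR-17-92 cluster, known as an oncogenic cluster, 5 of 6 rows fell and 0 rose, with a median log2 change of -0.65. Its member mir-20a fell by 0.74, and mir-92a, at 83857 ± 24066 against 57375 ± 13851 CPM, did not pass (edgeR adjusted p = 0.0562) but was called lower in 7 of 18 alternatives. In the paralogous clusters of mir-106b and mir-106a 4 of 6 tested rows fell, and in the clusters of mir-23, mir-27 and mir-24 4 of 5 fell, mir-27b by 0.82 and mir-24 by 0.66. In the family of mir-130, mir-301 and mir-454 4 of 5 fell, with a median of -0.82. In the miR-181 family 3 of 4 fell, and in the miR-30 family 3 of 5. Of let-7 and its partners, which restrain RAS and MYC, 5 of 14 fell and the median was -0.51.

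In the cluster of mir-183, mir-96 and mir-182, known from sensory cells, 2 of 3 rows fell, mir-183 by 0.64 and mir-182 by 0.52, the latter standing at 0.11 with spike-in scaling. Among hairpins in CLCN5, 2 of 8 fell, with a median of -0.18, and mir-660 and mir-500a did not pass. In FTX 2 of 5 fell and mir-374a did not. In the family of mir-34 and mir-449 1 of 6 fell although the median was -0.85, and in the miR-200 family 1 of 3 fell. Of the HOX-embedded rows 1 of 5 fell, mir-10b by 0.97. In the X-linked cluster of mir-424 and mir-503 0 of 5 rows were called in either direction and the median was 0.09, with mir-424 at -0.41, mir-503 at 0.12 and mir-542 at 0.41. By DESeq2 too 0 of these 5 were called, and 0 had an unadjusted edgeR p under 0.05. Spike-in scaling called 2 of them higher (median 0.67), total counts 2 higher (0.59) and the GC correction 2 lower (-0.45). Of 16 rows listed as solitary, 7 fell, 1 rose (mir-7, which has a locus near another tested hairpin), and the median was -0.43.

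These directions are relative to the TMM zero. With spike-in scaling the median was above 0 for let-7 and its partners (0.11), the mir-183 cluster (0.11), the rows in CLCN5 (0.38) and FTX (0.26), the HOX-embedded rows (0.25) and the solitary rows (0.15), against 0.73 for all rows. It remained below 0 for the miR-17-92 cluster (-0.07, 1 row called lower), the clusters of mir-106b and mir-106a (-0.11, 0 lower), mir-23, mir-27 and mir-24 (-0.06, 0 lower), the families of mir-130 (-0.26, 0 lower), mir-30 (-0.09, 0 lower) and mir-181 (-0.48, 2 lower). For the lists named as lower, a fall under spike-in scaling was thus called in few rows, while every one of these medians stayed below that of all rows.

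The hairpins that bypass the Microprocessor, because splicing or transcription itself frees their ends, were called in 0 of 4 tested rows, of 12 listed, by edgeR and by DESeq2, with 0 at an unadjusted edgeR p under 0.05. Mir-320a was at 1076 ± 256 and 1132 ± 244 CPM, mir-484 at 396 ± 93.99 and 452 ± 148 CPM, and mir-1226 at 33.8 ± 9.89 and 32.9 ± 12.02 CPM. Their log2 changes were 0.07, 0.19 and -0.04. With spike-in scaling mir-320a and mir-484 stood at 0.69 and 0.81 and were called higher, mir-484 also with total counts. The miR-548 family, primate hairpins derived from a transposon, was the list that rose: 35 of 44 tested rows, of 53 listed, were higher, 0 were lower, and the median log2 change was 1.51. With the GC correction 18 of the 44 were higher and the median was 0.70. Some of these rows passed the count filter only through the deletion clones. An example is mir-548ar, at 0.241 to 2.10 CPM in wild-type and 3.01 to 7.65 CPM in deletion clones. The share of higher rows is thus partly fixed by the filter. Its most abundant row, mir-548h, rose from 138 ± 13.3 to 451 ± 76.7 CPM (log2 change 1.71 ± 0.22, edgeR adjusted p = 0.00024). The family's hairpins are similar in sequence, so reads may be assigned to more than 1 row. The median hairpin GC content of its tested rows was 34.9%, and with the GC correction mir-548h stood at 0.86.

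**Figure D1:**
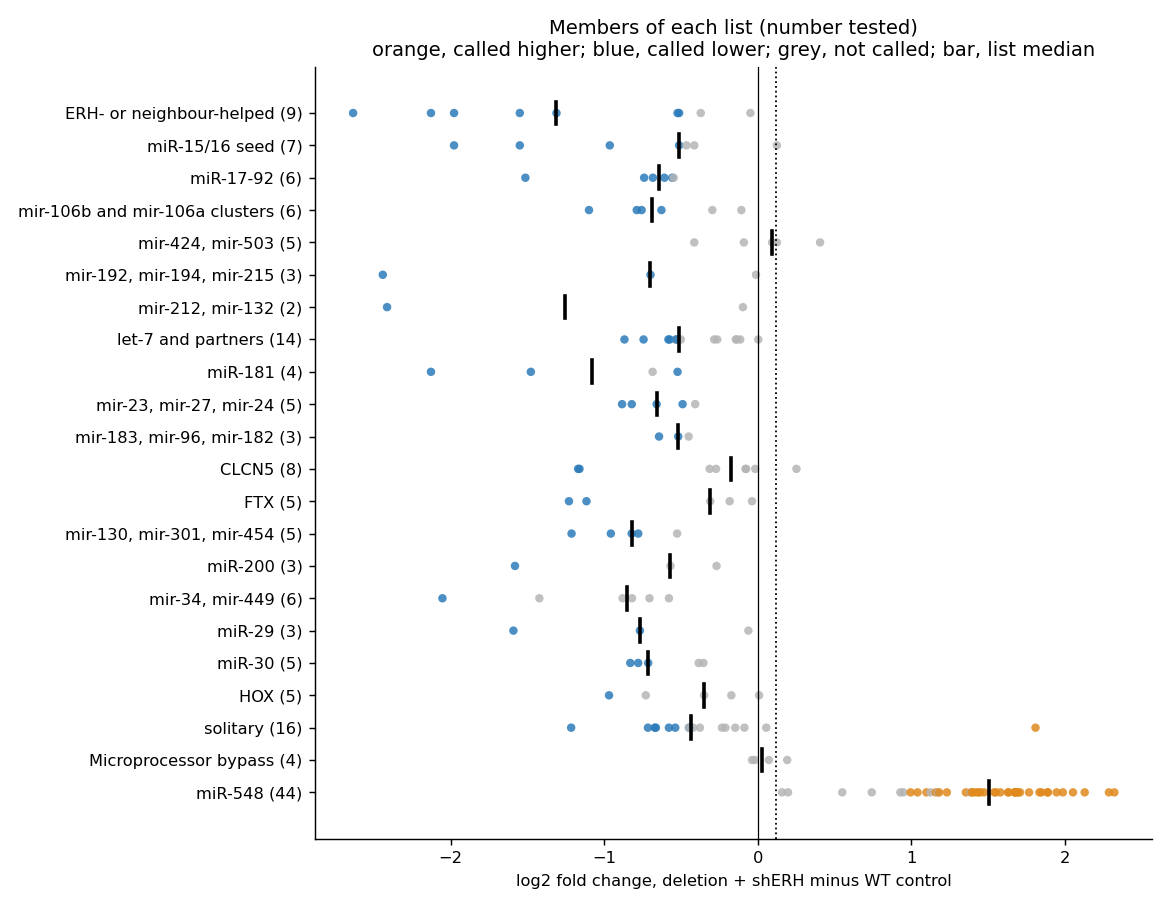
Log2 fold change of deletion plus ERH shRNAs over wild type with control shRNAs (x axis) for the tested members of each list (y axis, number tested in brackets), with a bar at the list median and a dotted line at the median of all 553 rows, 0.12. Members of most cluster and family lists lie left of the dotted line, and 35 of the 44 miR-548 rows are called higher.

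Whether the combined difference equals the sum of the single effects was asked on the log2 scale. The sum was the effect of the deletion under control shRNAs plus the effect of the knockdown in wild-type clones. The departure from it, combined minus sum, is the same quantity as the knockdown effect in deletion clones minus that in wild-type clones. All 3 effects use the wild-type control sums, so their values are set side by side without a correlation. Over 623 rows the root mean square log2 effect was 0.86 for the deletion alone, 0.79 for the knockdown alone, 1.55 for their sum and 1.12 for the combination. The knockdown effect in deletion clones, which shares no library with that in wild-type clones, had a root mean square of 0.51.

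The medians of the combination lay beyond those of each single effect and short of those of the sum. Among the 91 rows that fell, the median was -0.61 for the deletion, -0.57 for the knockdown, -1.22 for the sum and -0.98 for the combination. Among the 168 rows that rose, the medians were 1.15, 0.98, 2.09 and 1.48. The combination was larger than both single effects in 77 of the 91 and in 144 of the 168. It was short of the sum in 74 of the 91 and 155 of the 168, against 422 of all 553. These counts are a description only. The wild-type control sums enter the sum through both single effects and the departure with the opposite sign, so error in those 4 sums alone can place rows short of the sum, and it also enters the distances below. The rows were also chosen on the combined difference, which uses 2 of the 4 arms in the departure. Scaling moved the rows that fell: with spike-in scaling 31 of the 91 and 167 of the 168 were short, and with total counts 51 and 162. The distance between the medians of rising and falling rows does not depend on a common shift, and it was 3.31 for the sum and 2.46 for the combination, or 74.2% of the sum. For the knockdown alone this distance was 1.50, 1.51, 1.83 and 1.61 in wild-type clones 52, 55, 57 and 67. It was 0.73, 0.74, 0.64 and 0.68 in deletion clones 30, 34, 42 and 43. Every deletion clone was below every wild-type clone.

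**Figure D2:**
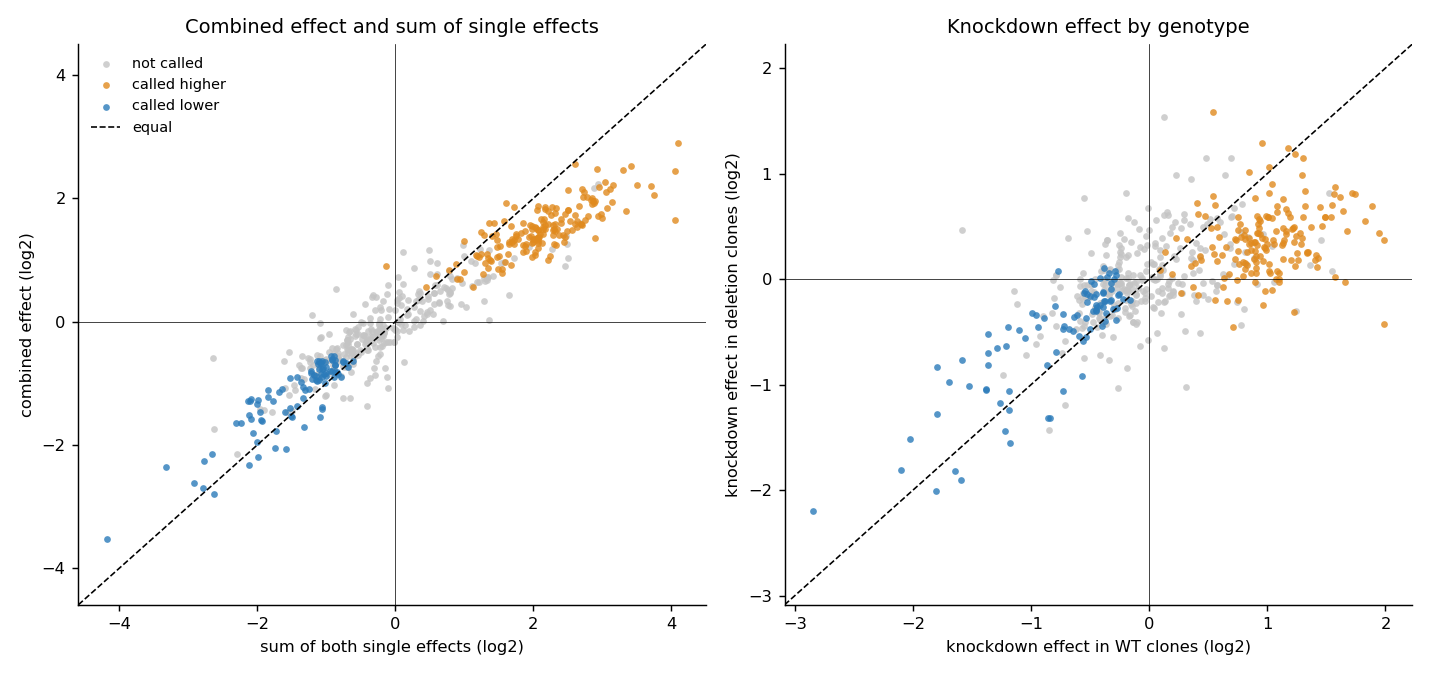
Left, the combined log2 effect (y axis) against the sum of the deletion effect and the knockdown effect in wild type (x axis). Right, the knockdown effect in deletion clones (y axis) against that in wild-type clones (x axis), 1 point per tested row with the dashed line marking equality. The 168 rising rows lie mostly below the line in both panels, with median combined 1.48 against median sum 2.09.

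Row by row the departure was not called. In the interaction fit with the clone as a block, 0 of 623 rows (0.0%) had an edgeR adjusted p under 0.05, and the smallest adjusted p was 0.0698. Without adjustment 119 rows (19.1%) had p under 0.05, 91 with a departure below 0 and 28 above. DESeq2 called 18 rows and limma with the clone as a random effect called 8. The number of calls differed between the shRNA pairs. With the first control and ERH shRNA alone 36 rows were called, and with the second alone 0, where 18 had an unadjusted p under 0.05. The median departure of rising rows minus that of falling rows was -1.04 with the first pair and -0.86 with the second. Whether the pairs differ was not tested. Leaving out wild-type clone 52 gave 33 called rows. The median half-width of the 95% interval of the departure was 0.68 over the 553 rows. That interval is unadjusted, whereas a call needed an adjusted p under 0.05 over 623 rows. Departures larger than this half-width could therefore be missed as well, and uncalled rows with larger ones are given below. Sums are therefore neither shown to hold nor called broken for single rows by this test.

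Rows with little departure were found among the largest falls. For mir-1306 the deletion alone gave -1.52, the knockdown alone -1.27, and their sum -2.79, beside a combined effect of -2.70. The departure was 0.07 ± 0.29 (SE; 95% interval -0.54 to 0.68). On the scale of all 16 sums mir-1306 ran from 24.0 to 42.2 CPM in deletion clones with control shRNAs and from 26.2 to 56.4 CPM in wild-type clones with ERH shRNAs. Both single arms lay between the double arm, 11.3 to 18.9 CPM, and the wild-type control, 66.1 to 133 CPM. Mir-181b gave -0.77 and -1.22 alone and -2.20 combined, against a sum of -1.99, with a departure of -0.21 ± 0.19. Mir-192 lay further from its sum than mir-1306 and mir-181b did. It gave -0.81 and -2.10 alone, and the combination of -2.62 was short of the sum of -2.91. Its deletion clone 30 with control shRNAs, at 4539 CPM, was as high as the wild type.

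In some rows the knockdown effect was far larger than that of the deletion. For mir-15a the deletion alone gave -0.15 and the knockdown alone -1.59, with -2.06 combined. Mir-15a was at 3241, 2300, 2576 and 3099 CPM in deletion clones with control shRNAs, inside the wild-type control range of 2068 to 3952 CPM. It was at 955, 954, 1133 and 1059 CPM in wild-type clones with ERH shRNAs. Mir-29c gave -0.15, -1.18 and -1.70, and mir-212 gave -0.32, -1.80 and -2.33. The departures of these 3 rows, -0.31 ± 0.26, -0.37 ± 0.27 and -0.22 ± 0.36, all had 95% intervals that include 0.

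The row mir-15b had both single effects and a combined effect short of their sum. Its deletion effect was -0.95, its knockdown effect in wild type -1.37, the sum -2.31 and the combination -1.65. The knockdown lowered it by 1.10, 1.33, 1.42 and 1.63 in wild-type clones and by 0.80, 0.52, 0.76 and 0.73 in deletion clones. Every wild-type clone moved more than every deletion clone (departure 0.66 ± 0.16, edgeR adjusted p = 0.0782). Mir-15b was picked on the unadjusted p of this departure, so that separation follows in part from the choice. The further rows chosen by the same rule, the smallest unadjusted p of the departure among called rows, were mir-532 (-0.56 and -1.29 alone, -1.22 combined, departure 0.63 ± 0.17) and mir-589 (-0.53 and -1.59 alone, -1.30 combined, departure 0.82 ± 0.22). Their edgeR adjusted p-values were 0.0861 and 0.0892.

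Among the rising rows chosen by that rule, and in mir-7, the knockdown effect in deletion clones was small. Mir-7 rose by 1.57 with the deletion alone, by 1.42 with the knockdown alone and by 1.68 with both, beside a sum of 2.99. It ran from 7417 to 13302 CPM in deletion clones with control shRNAs and from 8386 to 15458 CPM with ERH shRNAs, and these ranges overlapped (departure -1.30 ± 0.32, edgeR adjusted p = 0.0782). Mir-548t rose by 1.59, 1.10 and 1.58, mir-579, in an intron of ZFR, by 1.40, 1.04 and 1.29, and mir-548aa by 1.60, 1.10 and 1.58. In deletion clones the knockdown effect on mir-548t was 0.01, 0.20, -0.25 and 0.03, against 1.27, 1.18, 1.28 and 0.66 in wild-type clones. Mir-548t, mir-579 and mir-548aa were picked on the departure itself, so such a separation follows in part from the choice. The departures were -1.11 ± 0.23, -1.17 ± 0.25 and -1.13 ± 0.26, with edgeR adjusted p-values of 0.0698, 0.0698 and 0.0782. The rows mir-548t and mir-548aa held nearly the same counts and may share reads. Over the 44 tested miR-548 rows the median knockdown effect was 0.94 in wild-type and 0.15 in deletion clones, and the departure was below 0 in 42. Over all 168 rising rows these medians were 0.98 and 0.36, with a departure below 0 in 155, and over all 553 rows the departure was below 0 in 294.

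The ratios were put to the same question. For mir-1306 to mir-3618 the deletion alone gave -0.74 and the knockdown alone -1.09. The combination gave -2.53, which is beyond the sum of -1.83, whereas the row mir-1306 by itself was close to its sum, as given above. The knockdown lowered this ratio by 1.09 ± 0.24 in wild-type and by 1.80 ± 0.43 in deletion clones (SD, n = 4 each; departure -0.70, exact permutation p = 0.0286, adjusted 0.143 over 5 ratios). For mir-15a to mir-16 the departure was -0.58 and for mir-15b to mir-16 it was 0.40, of opposite sign, each with an exact permutation p of 0.114. For mir-451a to mir-144 it was 0.47 (exact permutation p = 0.571). None of the 5 departures passed after adjustment, by exact permutation tests in which 1 departure had an unadjusted p under 0.05. With 4 clones against 4 the smallest exact permutation p is 0.0286. A single departure at that floor has an adjusted p of 0.143 over 5 ratios, so it could not pass alone. The adjusted test therefore cannot decide whether mir-1306 to mir-3618 departs from its sum.

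Total miRNA relative to the spike-in RNAs, an estimate of miRNA content per amount of RNA, did not separate the groups. The log2 ratio of all miRNA to all spike-in counts was 7.03, 7.43, 6.82 and 6.78 in the wild-type clones and 7.31, 7.15, 6.97 and 7.09 in the deletion clones with ERH shRNAs. The means were 7.02 ± 0.30 and 7.13 ± 0.14, and the difference of 0.11 did not pass (exact permutation p = 0.543).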

How the data were processed

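Small RNA libraries had been made with the QIAseq miRNA kit from total RNA mixed with 4 spike-in RNAs, per the labels' protocols. The deposited table held whole-number read counts per precursor name, per the file headers, for 1513 miRNA rows and the spike-ins. The submitters' processing notes name SAMtools. The aligner, annotation, genome build and whether molecular identifiers were used are not given in the sources used here, and without such identifiers amplification copies would be among the counts. In the comparison, edgeR p-values set the group difference against the spread between clones. In the departure fit, with the clone as a block, the spread is that of the knockdown effect between clones. Exact p-values rest on the arrangements of clones between groups. Among the 24 library pairs within groups, chi-square per degree of freedom was at least 75.4, so each was kept as its own library.

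Counts of the 2 libraries per clone and arm were summed. The comparison was fitted on 8 sums with edgeR 4.0.16 in R 4.3.3 (filterByExpr, TMM over miRNA rows, quasi-likelihood test, Benjamini-Hochberg adjustment), and 553 rows passed the filter. That filter could be passed through either group alone. The departure from additivity was the genotype by knockdown interaction in all 16 sums, blocked by clone, on 623 rows. Per the labels every clone received all vectors, which pairs its sums, and the deviations of its control and its ERH sum from their group means correlated with r from 0.29 to 0.67. CPM are TMM-scaled, on the log2 scale with a prior count of 2. The single effects, their sum and the combined effect set beside it are differences of mean log2 CPM over the 16 sums, while departures with an SE are edgeR estimates. Ratios were tested by exact permutation of the clones (scipy 1.17.1). Hairpin positions, host genes and GC content were taken from GENCODE 29 (GRCh38, 1454 rows matched), and sequences came from RefSeq, where 513 of the 553 tested rows matched. Whether the counts rest on this build is not known. The method was tested on simulated data. The simulated sums held no clone effect or pairing, so that test does not show how the clone-blocked departure fit behaves on paired sums.

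The members, lists and rules were chosen with earlier results of these data known. The named rows were up to 8 per direction with the largest log2 change and up to 4 with the highest CPM (adjusted p under 0.05, 10 CPM or more on average over the 8 sums, no overlap), 9 hairpins reported to need ERH or a neighbour with their partners, up to 3 per direction with the smallest unadjusted p of the departure, and up to 3 most abundant members of each list. Alternatives were DESeq2 1.42.0, spike-in and total-count scaling, other filters, single libraries, each shRNA pair, GC offsets, all 16 sums in 1 fit, limma 3.58.1 with a random clone effect, no replicate block, and leaving out each clone.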

Additional observations from a re-analysis of the deposited data

Results flagged for a closer look

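In 6 groups of 4 clones, 4.55% of those checked, 1 clone lay far from the other 3 (Dixon's test). Chance flags about 1 in 20 groups. Wild-type clone 57 with control shRNAs was the distant clone in 3 of them: mir-3618 was at 55.3 CPM against 32.1 to 33.2 in the other clones, mir-92a at 119794 CPM against 69945 to 75073, and mir-532 at 1205 CPM against 2563 to 2703. In the deletion clones with ERH shRNAs, clone 42 was high for mir-451a, at 10.05 CPM against 3.23 to 3.88, and for mir-589, at 225 CPM against 157 to 167. Clone 30 was high for mir-194, at 704 CPM against 336 to 378. Without clone 57 the comparison called 226 rows, 159 higher and 67 lower.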

How the results depend on the processing

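Of the 44 called rows the text names, 24 kept their call in every alternative, 13 lost it only under spike-in or total-count scaling, and 4 changed sign, all under spike-in scaling: mir-16 (0.10), mir-103a (0.030), mir-181a (0.089) and mir-182 (0.11). Mir-25, not called, stood at 0.53 there, and the clustered median at 0.020. The median of all rows was -0.14 with the GC correction. Called rows numbered 134 with a mean of at least 100 counts (305 tested), and 206 to 247 when a clone was left out. For the departure from the sum, called rows numbered 18 with DESeq2, 34 with total-count scaling, 19 without a filter, 29 with a mean of at least 100 counts, 58 with each library as its own sample, 36 with shRNA pair 1 and 1 with the GC correction. Leaving out a clone gave 0 to 33, with 33 without clone 52 and 2 without clone 67. In the paired design, 0 rows were called with no replicate block, with 49 at an unadjusted p under 0.05, and 8 with the replicate block as a random effect. The cause of these differences was not tested.

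With 3 clones against 4 no exact p can go below 0.0571, so no ratio could pass. Leaving out a clone gave differences from -1.62 to -1.29 for mir-15a to mir-16, -1.13 to -0.93 for mir-15b to mir-16, and -2.70 to -2.29 for mir-1306 to mir-3618. The mir-15b to mir-16 difference was -0.80 with shRNA pair 2 (exact p = 0.0571). The departure for mir-1306 to mir-3618 was -0.68 with pair 1, -1.23 with pair 2, and -0.81 to -0.50 without a clone. With pair 1 the departures of mir-15a and mir-15b to mir-16 were -0.80 and 0.65, each past an unadjusted p of 0.05. The departure for mir-451a to mir-144 ran from -0.061 (without clone 43) to 0.75, and single shRNA pairs gave no value because mir-144 had counts of 0. Total miRNA to spike-in was -0.017 with pair 2, and its departure 0.23 with pair 2 and -0.39 to 0.036 without a clone, positive without clone 67.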
